A study of Mus musculus with 8 samples.

Results

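The genes described here are 45 complement and coagulation genes, chosen by symbol from a list of plasma proteins of both cascades and of fibrinolysis. All 45 symbols were present among the 22059 genes of the count tables. A total of 44 passed the filter on low counts and were tested, and Cfd, the gene of complement factor D, did not pass. RNA-seq was performed on whole livers of wild-type FVB mice (FVB/NJ in the study's methods) at embryonic day 18 (E18), postnatal day 14 (P14), postnatal day 28 (P28) and in the adult, which is 3 months of age in the sample names, with 2 samples at each of the 4 stages. The labels name no transgene, knockout or treatment for any sample, so that stage is the only difference between groups that the labels give. Whether the 2 samples of a stage came from separate animals is not in the labels, and the study calls them biological duplicates. The p-values below measure the spread between these samples, which may be in part technical.

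Complement is a set of plasma proteins and receptors that mark and lyse microbes. It is started by C1q on antibody complexes, by mannose-binding lectins on sugars, or by the slow activation of C3 through factors B and D, and it ends in the membrane attack complex of C5b, C6, C7, C8 and C9. Coagulation is a chain of serine proteases, several of which need vitamin K for the carboxylation of their glutamates, that ends in the cleavage of fibrinogen by thrombin, and plasmin removes the clot. Hepatocytes secrete most of these proteins into plasma. Macrophages are a main source of C1q, myeloid cells of properdin (Cfp), endothelial cells of factor VIII, megakaryocytes and macrophages of the factor XIII A subunit, and adipocytes of factor D.

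Each library held 68154675 to 106055723 reads on genes, and 3 reads, taken as the smallest value that this depth can show, corresponded to 0.0216 to 0.0516 CPM (reads scaled to a common library total of 1000000 with TMM factors). The values below are such CPM unless RPKM, the reads per kilobase of a gene scaled to the total of the library, is named. Levels of different genes are compared in RPKM only. Differences between stages are log2 fold changes, later minus earlier stage, from edgeR's quasi-likelihood test, with their standard error (SE) and an edgeR p adjusted over all genes tested. The libraries within a stage did not have the same sex-linked transcripts. Xist, which is transcribed from the inactive X chromosome of females, was at 774 and 83.6 CPM at E18 and at 0.545 and 570.2 CPM at P14, and Y-linked Ddx3y was at 0 and 28.0 CPM and 54.2 and 5.75 CPM. The replicate 2 libraries of both stages held Xist and Ddx3y together. All 4 P28 and adult libraries had under 1 CPM of Xist and 54.6 to 63.3 CPM of Ddx3y, so that for comparisons with E18 and P14 the makeup of the samples by sex and their stage cannot be told apart. Blood-forming cells fill much of the fetal liver, and the summed CPM of 8 erythroid markers fell from 8769 and 11457 at E18 to 101 and 91.0 in adult. Cpa1, a digestive enzyme of the pancreas, was at 57.4 and 116 CPM at E18 and at most 0.0561 CPM later, and its part in the E18 values was not tested. In whole tissue, fewer cells of a type and less RNA per cell cannot be told apart. With all libraries, the median log2 fold change of the 44 tested genes from E18 to adult was 2.39. It was 2.34 without E18 replicate 1, 2.40 without E18 replicate 2 and 2.37 without either adult library. Leaving out a P14 or P28 library removes no sample of this comparison.

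Most complement and coagulation transcripts were higher after birth than at E18. Of the 44 genes tested, 35 rose from E18 to adult by over 3-fold with a false discovery rate below 0.1, 1 (F13a1) fell and 8 did not pass both thresholds, whereas 16.8% of all 17081 genes tested rose and 23.8% fell. Their median log2 fold change was 2.39, against -0.11 for all genes tested. In all 35 genes that rose, both adult samples lay above both E18 samples. A call past both thresholds makes this likely in advance, and the share among all genes tested was not counted. Reads on the 45 genes made up 2.07% ± 0.05 (SD, n = 2) of all reads on genes at E18. The share was 5.10% ± 0.01 at P14, 5.94% ± 0.08 at P28 and 5.79% ± 0.39 in the adult. The share is taken within each library and does not depend on TMM scaling.

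The size of these rises depends on how E18 is scaled against the later stages. TMM gave factors of 1.60 and 1.54 to the E18 libraries and of 0.847 to 0.888 to the others. With scaling by library size alone, the median of all genes moved to -0.95 and that of the complement and coagulation genes to 1.54. Under that scaling 22 genes rose over 3-fold and 2 fell, and the calls of C2, C3, Cfb, Cfi, F2, F10, F13b, Fga, Kng1, Masp1, Plg, Pros1 and Vtn were lost. Beside these genes, 7 of 9 hepatocyte markers rose over 3-fold from E18 to adult, with a median log2 fold change of 2.54. The remaining markers, albumin and Ahsg, had log2 fold changes of 0.59 and 1.03. The summed CPM of the 9 hepatocyte markers was 49798 and 52141 in the E18 samples, 277340.5 and 278764 in P14, 180263 and 193979 in P28, and 100898 and 124813 in the adult ones. How far hepatocyte number, hepatocyte RNA content or the loss of blood-forming cells set the rises was not tested.

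**Figure D1:**
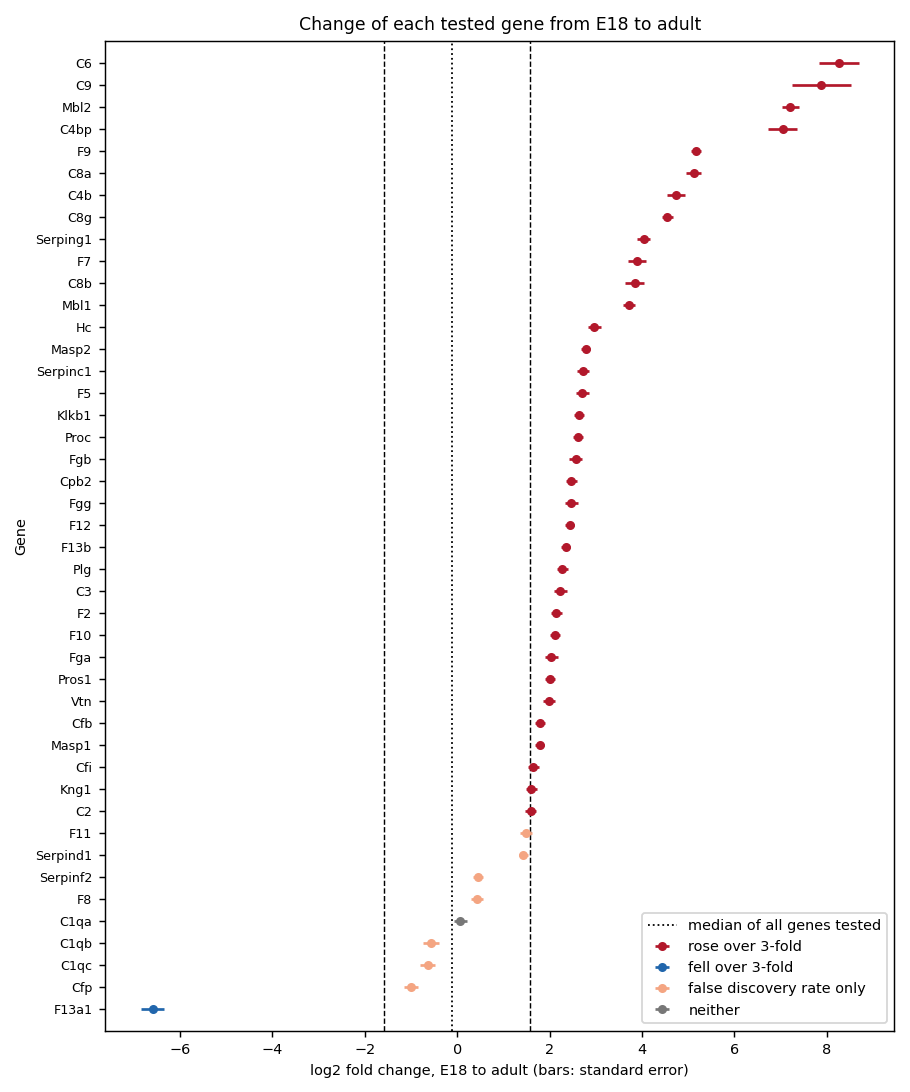
Log2 fold change from E18 to adult of the 44 tested genes (points, x axis) with its standard error (bars), ordered by size. The broken lines mark 3-fold in each direction and the dotted line the median of all tested genes, -0.11. C6, C9, Mbl2 and C4bp lie above 7, 8 genes lie between the lines for 3-fold, and F13a1 stands alone at -6.59.

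Most of the change came early. Between E18 and P14, 34 of the 44 genes rose over 3-fold and 1 fell, against 13.8% and 15.4% of all genes, and the median log2 fold change was 2.18 (all genes, -0.03). With library size alone and with both limma fits, 14 of them rose over 3-fold in this step. The calls of C6, Cfb, Cfi, Cpb2, F2, F5, F8, F13b, Fga, Fgb, Fgg, Hc, Klkb1, Kng1, Masp2, Plg, Proc, Pros1, Serpind1 and Vtn between E18 and P14 were lost in each of these. Between P14 and P28, 4 genes rose over 3-fold (C6, C8a, C8b and C9) and F13a1 fell, against 3.61% and 5.98% of all genes. At a false discovery rate below 0.1 with no threshold on fold, 20 of the 44 rose and 7 fell between P14 and P28, where 25.2% of all genes rose and 28.6% fell. Between P28 and adult, C6 alone rose over 3-fold and 0 genes fell over 3-fold in edgeR, against 0.767% and 2.24% of all genes, and 0 fell with DESeq2 or limma. At an unadjusted edgeR p below 0.05, 5 were lower in adult, and the share of all genes at this cutoff was not counted. At the false discovery rate without the fold threshold, C6 and F9 rose and the same 5 genes fell, against 7.94% and 13.2% of all genes. They were C1qa, C1qb, C1qc, Cfp and Mbl2. The other 37 genes passed neither test from P28 to adult, with log2 fold changes from -0.27 to 0.82. From P14 to adult, 4 genes rose (C6, C8a, C8b and C9) and F13a1 fell over 3-fold, against 4.35% and 11.1% of all genes.

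The 35 genes that rose from E18 to adult had reached a median of 75.9% of their adult mean CPM at P14 and of 99.6% at P28. At P14, 30 of the 35 were at 50% of the adult mean or more, and 11 were at or above it. The other 5 were C6 at 1.46%, C9 at 8.43%, C8b at 16.5%, C8a at 18.8% and C4bp at 39.5%. C6 remained below 50% at P28, with 24.4%. The stage with the highest mean was E18 for 1 of the 44 tested genes, P14 for 14, P28 for 12 and adult for 17. Neither the levels relative to adult nor the highest stages were counted for all genes tested. Of all genes tested, 13.8% rose over 3-fold from E18 to P14, 3.61% from P14 to P28 and 0.767% from P28 to adult.

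**Figure D2:**
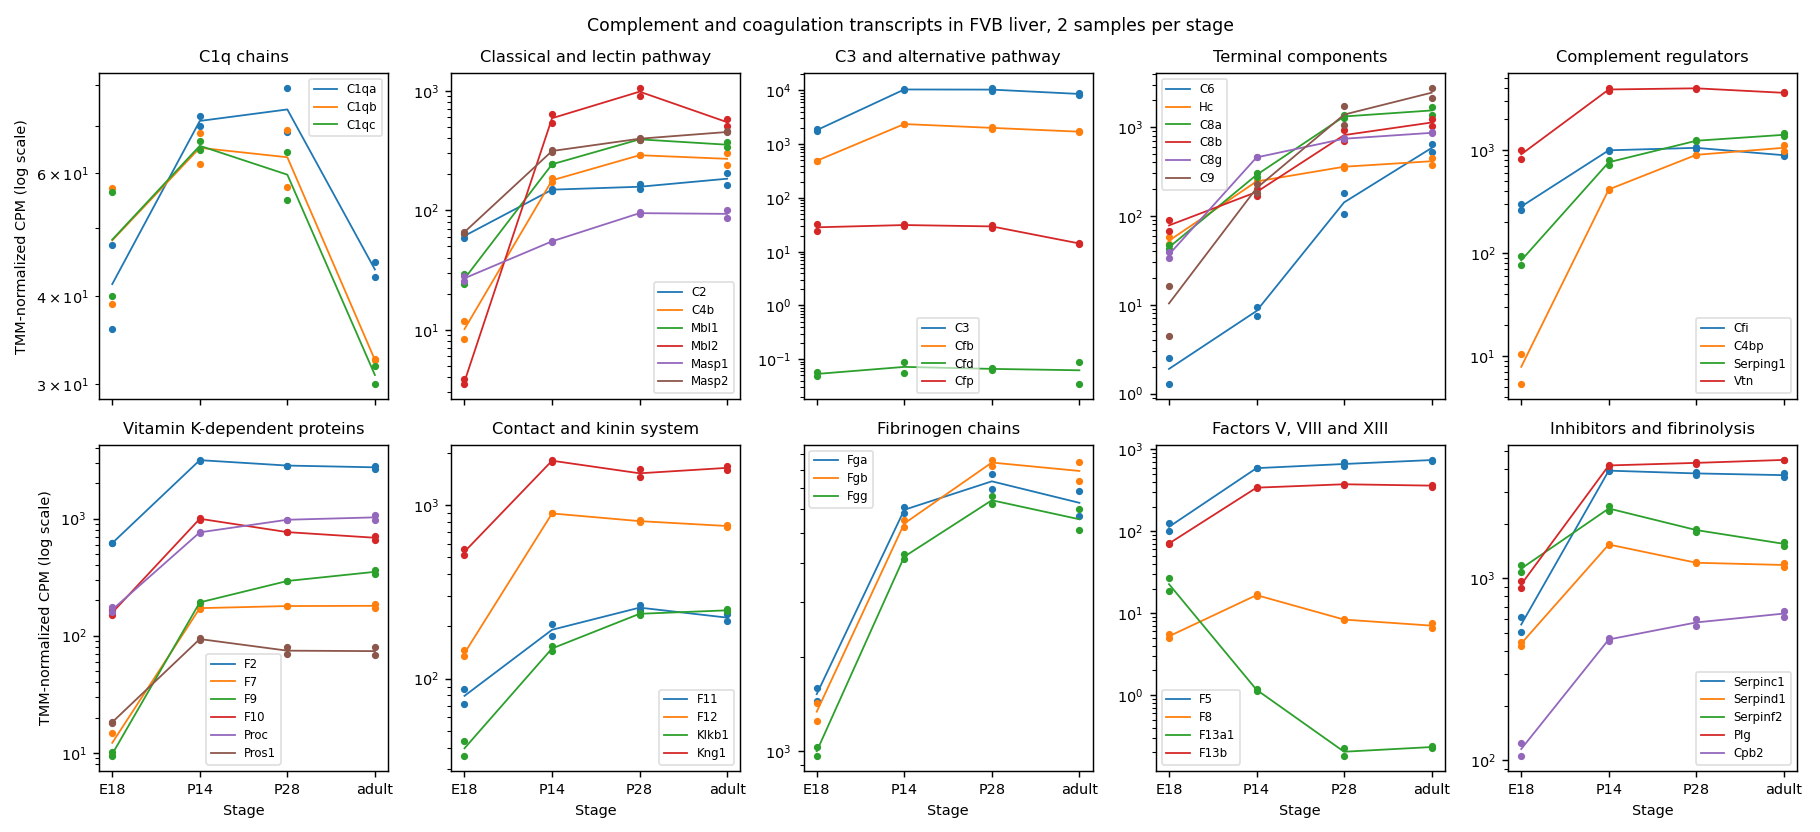
CPM of the 45 genes on a log axis at the 4 stages, in panels by role, with a point for each sample and a line through the stage means. Most panels rise steeply from E18 to P14 and then level off, the terminal components go on rising, and C1q, Cfp, F8 and F13a1 follow other courses.

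The terminal components, which assemble into the membrane attack complex, included C6 and C9, with the largest rises of the 44 genes, and all 4 genes that rose over 3-fold after P14. All 6 listed genes rose over 3-fold from E18 to adult, with a median log2 fold change of 4.83. The promoter windows of the 4 genes that were still rising over 3-fold after P14 are shown because they share this later rise. Those of Mbl1 and Mbl2 are shown because the paralogs rose unequally from E18 to P14, by 3.18 and 7.33. Each window runs from 250 bases before to 50 bases after the RefSeq start of the gene (GRCm38.p6) and is given 5′ to 3′ on the strand of the gene, with capitals on matches to the motifs described after the sequences.
C6 (chr15:4726960-4727259, plus strand): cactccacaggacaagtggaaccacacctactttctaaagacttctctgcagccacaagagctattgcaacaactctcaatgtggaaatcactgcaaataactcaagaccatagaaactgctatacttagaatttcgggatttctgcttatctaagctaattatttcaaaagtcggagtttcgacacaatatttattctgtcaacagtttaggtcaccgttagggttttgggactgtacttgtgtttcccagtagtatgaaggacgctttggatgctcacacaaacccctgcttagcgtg
C9 (chr15:6445096-6445395, plus strand): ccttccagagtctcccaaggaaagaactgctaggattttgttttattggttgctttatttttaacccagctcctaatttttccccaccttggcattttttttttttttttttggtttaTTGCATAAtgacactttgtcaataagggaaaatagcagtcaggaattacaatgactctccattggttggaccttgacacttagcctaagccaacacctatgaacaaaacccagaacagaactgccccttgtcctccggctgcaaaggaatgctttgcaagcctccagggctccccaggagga
C8a (chr4:104876349-104876648, minus strand): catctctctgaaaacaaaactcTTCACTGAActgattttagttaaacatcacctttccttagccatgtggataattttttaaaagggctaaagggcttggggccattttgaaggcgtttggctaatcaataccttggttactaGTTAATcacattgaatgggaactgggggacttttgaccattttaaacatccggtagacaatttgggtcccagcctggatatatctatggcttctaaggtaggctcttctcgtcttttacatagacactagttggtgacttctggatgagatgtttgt
C8b (chr4:104766067-104766366, plus strand): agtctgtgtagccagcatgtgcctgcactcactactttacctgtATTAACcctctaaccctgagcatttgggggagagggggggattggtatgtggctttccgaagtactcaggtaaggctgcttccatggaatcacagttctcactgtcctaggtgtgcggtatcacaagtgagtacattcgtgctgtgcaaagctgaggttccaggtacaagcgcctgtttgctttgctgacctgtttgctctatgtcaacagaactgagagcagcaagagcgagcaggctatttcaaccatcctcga
Mbl1 (chr14:41151206-41151505, plus strand): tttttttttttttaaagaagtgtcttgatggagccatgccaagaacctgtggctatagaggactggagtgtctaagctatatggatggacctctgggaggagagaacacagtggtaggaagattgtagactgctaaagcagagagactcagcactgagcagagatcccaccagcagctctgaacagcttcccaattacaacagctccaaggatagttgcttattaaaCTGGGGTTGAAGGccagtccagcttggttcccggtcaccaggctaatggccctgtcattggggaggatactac
Mbl2 (chr19:30232678-30232977, plus strand): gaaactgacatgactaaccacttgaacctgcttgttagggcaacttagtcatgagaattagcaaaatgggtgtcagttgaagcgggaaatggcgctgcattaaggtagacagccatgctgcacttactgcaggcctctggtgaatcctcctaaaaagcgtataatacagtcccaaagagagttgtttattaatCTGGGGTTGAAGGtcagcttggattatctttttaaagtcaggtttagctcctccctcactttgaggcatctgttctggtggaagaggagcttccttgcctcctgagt

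A RefSeq window was found for 35 of the 45 genes (37 windows), and none for Proc, Kng1, C1qa, C2, C4b, Plg, Serping1, Cfi, Masp1 and Cfb. They were searched on both strands for the letters TATAAA, for GTTAAT, a part of the site of the hepatocyte factor HNF1, for CAAAGTCCA of HNF4, for TTGCNNAA of C/EBP factors and for TTCNNNGAA of STAT factors, and matches of different motifs were allowed to overlap. GTTAAT was in 27.0% of the 37 windows and in 7.10% of 32851 windows of all genes. TTGCNNAA was in 24.3% and 10.8%, TTCNNNGAA in 18.9% and 8.30%, TATAAA in 10.8% and 13.6%, and CAAAGTCCA in 0% and 0.475%. In the sequences above, GTTAAT begins 107 bases before the start of C8a and 206 before that of C8b, where it reads ATTAAC on the strand of the gene, TTCNNNGAA begins 228 bases before the start of C8a, and TTGCNNAA begins 132 bases before the start of C9. The C6 window held no match to the 5 motifs. In the windows of Mbl1 and Mbl2, the capitals mark the longest run that both share, CTGGGGTTGAAGG, which begins 23 and 57 bases before the start. This run of 13 bases was in 3 windows in all, those of Mbl1, Mbl2 and Slc25a53. A match is a description of letters and no evidence of binding.

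C6, the component that binds C5b and lets C7 join, rose at every step. It was at 1.28 and 2.52 CPM in the E18 samples, 9.52 and 7.48 in P14, 104 and 179.9 in P28 and 524 and 639 in the adult ones. The groups did not overlap at any step, and the adult samples lay 308-fold above those of E18 by the fit, with a log2 fold change of 8.27 ± 0.42 (SE, adjusted p = 1.4e-07). The steps were 2.17 ± 0.34 (SE, adjusted p = 3.7e-04) from E18 to P14, 4.06 ± 0.35 (SE, adjusted p = 3.8e-05) from P14 to P28 and 2.03 ± 0.32 (SE, adjusted p = 0.0039) from P28 to adult. The last step was measured between libraries with the same sex-linked transcripts. C6 was the 44th of the 45 genes by RPKM at E18 and the 26th in adult.

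C9, which polymerises into the pore of the complex, had values of 4.45 and 16.2 CPM in the E18 samples, 227 and 183 in P14, 1045 and 1716 in P28 and 2124 and 2746 in the adult ones. Its E18 samples differed from each other by more than those of any other riser. The E18 sample with the lower C9, replicate 1, had the lower C6 too, but the higher C4bp. It was also the E18 library with no reads of Ddx3y, and the part of sex in these values was not tested. The log2 fold change of C9 from E18 to adult was 7.88 ± 0.64 (SE, adjusted p = 3.2e-06), and without E18 replicate 1 or replicate 2 it was 7.23 or 9.10. C9 rose by 2.75 ± 0.51 (SE, adjusted p = 0.0024) from P14 to P28, and from P28 to adult the change of 0.82 ± 0.48 (SE, adjusted p = 0.3) did not pass the test. By RPKM it went from the 36th of the 45 genes at E18 to the 8th in adult.

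C8 is a complex of an alpha, a beta and a gamma chain encoded by C8a, C8b and C8g. C8a had 46.6 and 42.0 CPM in the E18 samples, 303 and 275 in P14, 1255 and 1374 in P28 and 1383 and 1690.1 in the adult ones, and both chains of the neighbouring genes on chromosome 4 went on rising after P14. C8b had 67.2 and 89.0 CPM in the E18 samples, 203 and 168 in P14, 705 and 917 in P28 and 1019 and 1229.8 in the adult ones. C8g, a lipocalin whose gene lies on another chromosome, was at 33.9 and 39.5 CPM in the E18 samples, 455 and 455 in P14, 724 and 752 in P28 and 871 and 849 in the adult ones. From E18 to P14, C8g rose most, by 3.63 ± 0.12 (SE, adjusted p = 2.0e-08), followed by C8a with 2.71 ± 0.14 (SE, adjusted p = 2.4e-07), and C8b had 1.25 ± 0.19 (SE, adjusted p = 2.8e-04), under 3-fold. From P14 to P28 C8g rose least, with 2.18 ± 0.14 (SE, adjusted p = 7.8e-06) for C8a, 2.13 ± 0.19 (SE, adjusted p = 5.2e-05) for C8b and 0.70 ± 0.11 (SE, adjusted p = 9.1e-04) for C8g. From P28 to adult none of the chains passed the test, at 0.23, 0.47 and 0.22.

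Ratios of RPKM within a library do not depend on scaling between libraries. The ratio of C8b to C8g was 0.919 and 1.04 in the E18 samples, 0.207 and 0.171 in P14, 0.451 and 0.565 in P28 and 0.542 and 0.672 in the adult ones. It was lowest at P14 and overlapped with no other stage there. The ratio of C8a to C8b was 0.427 and 0.291 in the E18 samples, 0.919 and 1.01 in P14, 1.10 and 0.923 in P28 and 0.836 and 0.846 in the adult ones, with both E18 values below all others. For all ratios given here, the smallest p that an exact permutation of 2 against 2 samples can give is 0.33, so the values stand as descriptions. A change of a ratio shows that the chains changed unequally and not which of them changed.

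Hc encodes C5, which the C5 convertases cleave to start the complex. FVB/NJ is known as a strain that lacks functional C5 in plasma, and the counts are of transcripts and not of protein. Hc was at 57.4 and 47.8 CPM in the E18 samples, 245 and 243 in P14, 368 and 347 in P28 and 372 and 452 in the adult ones, with no overlap between E18 and the later stages. From E18 to adult it changed by 2.97 ± 0.14 (SE, adjusted p = 6.9e-08), and the step after P14 was 0.55 ± 0.13 (SE, adjusted p = 0.0075), under 3-fold. The RPKM of C6 relative to Hc was 0.0426 and 0.101 in the E18 samples, 0.0744 and 0.0591 in P14, 0.542 and 0.994 in P28 and 2.70 and 2.71 in the adult ones. The E18 and P14 ratios overlapped, and the adult ratios lay above all others. C7, the remaining component and no member of the list, was singled out after its values had been seen. It was at 0.0504 and 0.0409 CPM in the E18 samples, 0.131 and 0.550 in P14, 1.26 and 1.30 in P28 and 1.72 and 2.74 in the adult ones, with a log2 fold change from E18 to adult of 5.56 ± 0.63 (SE, adjusted p = 3.0e-05).

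**Figure D3:**
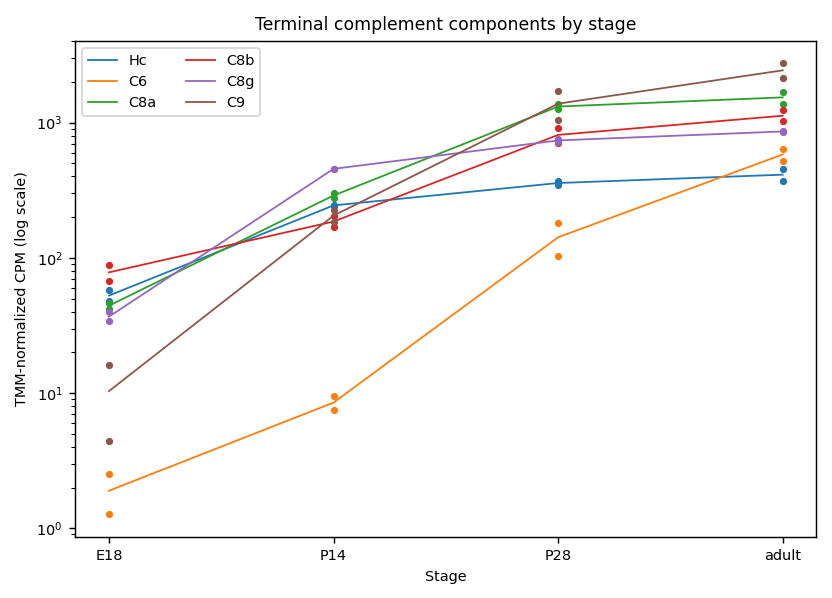
CPM of the terminal components at the 4 stages, with a point for each sample and a line through the stage means. C8g and Hc have made most of their rise by P14, C8a, C8b and C9 rise up to P28, and C6 is still rising from P28 to adult.

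All 6 genes of the classical and lectin pathways other than C1q rose over 3-fold from E18 to adult, with a median log2 fold change of 3.26. Mbl2, a mannose-binding lectin, was at 3.85 and 3.50 CPM in the E18 samples, 536 and 645 in P14, 1057 and 914 in P28 and 583 and 511 in the adult ones. It had the largest rise of the 44 tested genes from E18 to P14, with 7.33 ± 0.18 (SE, adjusted p = 6.4e-09), and it fell again from P28 to adult, with a log2 fold change of -0.85 ± 0.13 (SE, adjusted p = 0.0044), under 3-fold. Both adult samples lay below both P28 samples. Mbl1, its paralog, was at 24.0 and 29.5 CPM in the E18 samples, 242 and 243 in P14, 387 and 399 in P28 and 337 and 372 in the adult ones. The rise of Mbl1 from E18 to adult was 3.73 ± 0.13 (SE, adjusted p = 1.4e-08), and its change from P28 to adult of -0.15 ± 0.12 (SE, adjusted p = 0.44) did not pass the test. The ratio of Mbl2 to Mbl1 RPKM was 0.139 and 0.102 in the E18 samples, 1.91 and 2.29 in P14, 2.36 and 1.98 in P28 and 1.50 and 1.19 in the adult ones. Mbl1 was thus the more abundant transcript per length at E18 and Mbl2 at the later stages, in every sample.

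C4b, the source of the C4b fragment of the classical and lectin C3 convertase, was at 11.9 and 8.37 CPM in the E18 samples, 171 and 185 in P14, 289 and 290.0 in P28 and 237 and 302 in the adult ones. It rose by 4.74 ± 0.20 (SE, adjusted p = 3.7e-08) from E18 to adult, and the adult samples overlapped with those of P28. Relative to C2, with which its product forms the convertase, the RPKM of C4b was 0.0990 and 0.0649 in the E18 samples, 0.575 and 0.599 in P14, 0.942 and 0.863 in P28 and 0.710 and 0.727 in the adult ones. C4b has a near-identical neighbour, C4a, so that reads may have been split between them. C4a was at 1.03 and 0.637 CPM in the E18 samples, 10.3 and 11.1 in P14, 18.3 and 19.8 in P28 and 57.0 and 91.8 in the adult ones, and was picked after its values had been seen. Masp2, the lectin pathway protease that cleaves C4 and C2, was at 65.1 and 66.4 CPM in the E18 samples, 317 and 310.4 in P14, 391 and 405 in P28 and 448 and 457 in the adult ones, a log2 fold change of 2.78 ± 0.09 (SE, adjusted p = 1.3e-08) from E18 to adult. C2 and Masp1, the protease that activates Masp2, rose least of these genes, by 1.59 ± 0.12 (SE, adjusted p = 1.8e-06) and 1.79 ± 0.10 (SE, adjusted p = 2.3e-07). The call of C2 lies near the 3-fold line and was lost under 8 of the 20 alternative settings.

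C3, the central component on which all pathways converge, was at a mean of 1820.2 ± 79.9 CPM (SD, n = 2) at E18 and rose to 8576 ± 528 in the adult, by 2.24 ± 0.14 (SE, adjusted p = 5.1e-07) on the log2 scale. Its mean was highest at P14, and the steps after P14 did not pass the test. Cfb, the protease subunit of the alternative C3 convertase, rose by 1.80 ± 0.11 (SE, adjusted p = 4.1e-07) and was likewise highest at P14. It lies beside C2 on chromosome 17 and is its paralog. The RPKM ratio of Cfb to C2 was 8.03 and 7.44 in the E18 samples, 15.3 and 15.3 in P14, 13.3 and 11.3 in P28 and 10.2 and 7.91 in the adult ones, so that adult and E18 overlapped while P14 lay above both. Cfd, which cleaves factor B, was at 0.0344 to 0.0904 CPM over the 8 samples, close to the value of 3 reads, and was not tested. The adipocyte markers Plin1 and Lep were at 0 to 0.0344 CPM in the same samples, and the summed CPM of all 5 adipocyte markers, most of it Fabp4, was 9.90 to 48.8. Their part in the Cfd values was not tested.

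The 4 complement regulators rose over 3-fold. C4bp, which serves as the cofactor for the cleavage of C4b, was at 10.5 and 5.38 CPM in the E18 samples, 422 and 409.7 in P14, 902 and 899 in P28 and 982 and 1124 in the adult ones. No stages overlapped, and the log2 fold changes were 7.05 ± 0.32 (SE, adjusted p = 5.9e-08) from E18 to adult and 1.11 ± 0.25 (SE, adjusted p = 0.0058) from P14 to P28. Serping1, the inhibitor of C1 and of plasma kallikrein, was at 93.6 and 77.1 CPM in the E18 samples, 723 and 803 in P14, 1244 and 1221 in P28 and 1360.2 and 1454 in the adult ones, a log2 fold change of 4.04 ± 0.14 (SE, adjusted p = 1.4e-08). Vtn (vitronectin), which blocks the insertion of the membrane attack complex, was at 827 and 993 CPM in the E18 samples, 3745 and 3997 in P14, 3956 and 3989 in P28 and 3646 and 3539 in the adult ones, and rose by 1.98 ± 0.13 (SE, adjusted p = 7.7e-07). Unlike C4bp and Serping1, it did not pass the test in any step after P14. Cfi, the protease that inactivates C3b and C4b, rose by 1.65 ± 0.11 (SE, adjusted p = 8.2e-07), with its call lost under 6 of the 20 alternatives.

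The C1q chains did not follow. Together with Cfp, Serpinf2 and F11 they were singled out after their values had been seen, as genes that did not pass both thresholds. C1qa was at 35.9 and 47.4 CPM in the E18 samples, 72.3 and 70.0 in P14, 79.3 and 68.5 in P28 and 44.7 and 42.7 in the adult ones. C1qb was at 39.0 and 57.1 CPM in the E18 samples, 68.5 and 61.9 in P14, 69.1 and 57.2 in P28 and 32.5 and 32.4 in the adult ones. C1qc was at 40.0 and 56.3 CPM in the E18 samples, 66.6 and 64.6 in P14, 64.4 and 54.9 in P28 and 31.8 and 29.96 in the adult ones. All had their highest mean at P14 or P28, and from P28 to adult they fell by a factor under 3, with log2 fold changes of -0.76 ± 0.13 (SE, adjusted p = 0.0071), -0.96 ± 0.17 (SE, adjusted p = 0.0073) and -0.95 ± 0.15 (SE, adjusted p = 0.0047). From E18 to adult the values were 0.07 ± 0.13 (SE, adjusted p = 0.64) for C1qa, -0.57 ± 0.17 (SE, adjusted p = 0.012) for C1qb and -0.64 ± 0.15 (SE, adjusted p = 0.0037) for C1qc. The sign of C1qa in this comparison turned under 6 of the 20 alternatives, to -0.78 with library size alone. Under the same scaling C1qb was at -1.41 and C1qc at -1.49, and without E18 replicate 2 both changes were smaller in size, at -0.26 and -0.37.

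Cfp, properdin, which stabilises the alternative convertase, was at 24.4 and 32.4 CPM in the E18 samples, 32.1 and 30.6 in P14, 32.0 and 27.1 in P28 and 14.2 and 14.3 in the adult ones. Its stages overlapped up to P28 and it was lower in adult, with log2 fold changes of -1.05 ± 0.14 (SE, adjusted p = 0.0022) from P28 to adult and -0.998 ± 0.14 (SE, adjusted p = 1.6e-04) from E18 to adult. With library size alone the latter was -1.84, past 3-fold. Beside these genes, all 9 macrophage and Kupffer cell markers fell from P28 to adult at the same false discovery rate, 1 of them over 3-fold, with a median log2 fold change of -1.03. The summed CPM of these markers was 309.8 and 424 in the E18 samples, 531 and 589 in P14, 506 and 610.2 in P28, and 287 and 295 in the adult ones. Clec4f, Csf1r and the other defining markers were above 0 in every library. The part of macrophage number in the C1q and Cfp values was not tested. Within the C1q genes, the RPKM ratio of C1qb to C1qa was 1.11 and 1.23 in the E18 samples, 0.965 and 0.901 in P14, 0.889 and 0.851 in P28 and 0.741 and 0.775 in the adult ones, with no overlap between E18 and any later stage. The ratio of C1qc to C1qb had a lowest value of 0.931 and a highest of 1.05 over the 8 samples.

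**Figure D4:**
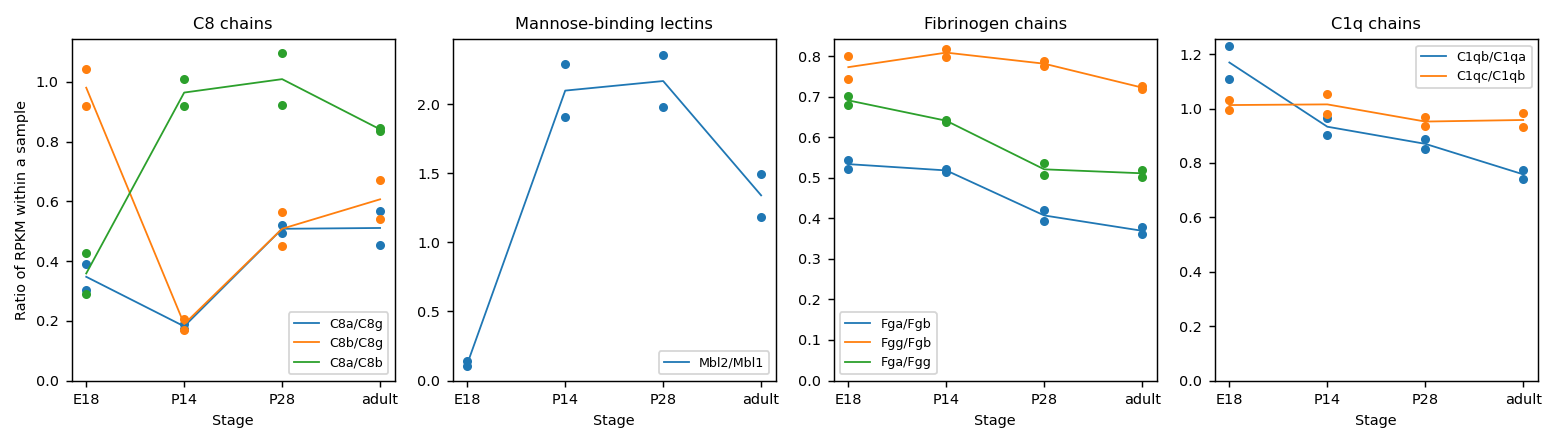
Ratio of RPKM within each sample (points) and its stage mean (lines) for chains of C8, the mannose-binding lectins, the fibrinogen chains and the C1q chains, on linear axes from 0. C8b relative to C8g, C8a relative to C8b and Mbl2 relative to Mbl1 shift most between E18 and P14, C8a relative to C8g shifts most between P14 and P28, and Fga relative to Fgb and C1qb relative to C1qa decline over the stages.

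The 6 vitamin K-dependent proteins rose over 3-fold from E18 to adult and all had done so by P14, although the calls of F2, Proc and Pros1 at P14 were lost with library size alone, at 1.49, 1.33 and 1.49. F9, the serine protease whose loss gives hemophilia B, was at 9.43 and 10.1 CPM in the E18 samples, 191 and 194 in P14, 294 and 292 in P28 and 339 and 363 in the adult ones. Its steps were 4.30 ± 0.10 (SE, adjusted p = 6.3e-09), 0.61 ± 0.09 (SE, adjusted p = 7.4e-04) and 0.26 ± 0.09 (SE, adjusted p = 0.089), and no stages overlapped. Both steps after P14 passed the false discovery rate alone and were under 3-fold. F7, the protease that binds tissue factor to start clotting, was at 9.48 and 14.8 CPM in the E18 samples, 168 and 175 in P14, 178 and 180.1 in P28 and 186 and 173 in the adult ones. Almost all of its rise of 3.89 ± 0.19 (SE, adjusted p = 1.1e-07) lay before P14, and its neighbour on chromosome 8, F10, which factor VII activates, rose by 2.12 ± 0.11 (SE, adjusted p = 1.4e-07). The RPKM ratio of F7 to F10 was 0.0923 and 0.129 in the E18 samples, 0.250 and 0.249 in P14, 0.339 and 0.338 in P28 and 0.379 and 0.381 in the adult ones, higher at each later stage with no overlap. Proc, the precursor of the anticoagulant protease protein C, was at 159 and 174 CPM in the E18 samples, 755 and 771 in P14, 977 and 979 in P28 and 1067 and 983 in the adult ones, a log2 fold change of 2.62 ± 0.11 (SE, adjusted p = 3.9e-08). F2 (prothrombin) and Pros1 (protein S, the cofactor of protein C) rose by 2.15 ± 0.11 (SE, adjusted p = 1.5e-07) and 2.02 ± 0.11 (SE, adjusted p = 1.6e-07). F2, F10 and Pros1 had their highest mean at P14, and F10 and Pros1 were lower in adult than at P14 with log2 fold changes of -0.54 ± 0.11 (SE, adjusted p = 0.0024) and -0.34 ± 0.10 (SE, adjusted p = 0.019), under 3-fold.

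The cofactors of the proteases, F5 and F8, differed. F5, the cofactor of factor Xa, was at 127 and 99.9 CPM in the E18 samples, 591 and 588 in P14, 705 and 621 in P28 and 731 and 751 in the adult ones, and rose by 2.71 ± 0.14 (SE, adjusted p = 1.4e-07), with neither step after P14 past the test. F8, the cofactor of factor IXa whose loss gives hemophilia A, was at 5.54 and 4.91 CPM in the E18 samples, 16.1 and 17.1 in P14, 8.52 and 8.20 in P28 and 7.51 and 6.58 in the adult ones. Both P14 samples lay above all others. F8 rose by 1.67 ± 0.12 (SE, adjusted p = 2.5e-06) from E18 to P14, fell to P28 with -0.99 ± 0.12 (SE, adjusted p = 2.8e-04), under 3-fold, and stood at 0.43 ± 0.12 (SE, adjusted p = 0.011) between E18 and adult. The first call was lost with upper-quartile scaling, library size alone, limma and at least 10 counts in every sample, and the last value turned to -0.42 with library size alone. By RPKM F8 was the 43rd of the 45 genes at every stage. The summed CPM of 8 sinusoidal endothelial markers was 234 and 272 in the E18 samples, 578 and 595 in P14, 275 and 280.2 in P28, and 185 and 220.0 in the adult ones. From P14 to P28 all 8 of these markers fell at a false discovery rate below 0.1, 1 of them over 3-fold, and all were above 0 in every library. From E18 to adult 6 of the 8 fell at that rate and 2 rose, with a median log2 fold change of -0.78, beside 0.43 for F8. The summed CPM of 8 stellate and mesenchymal markers was highest at P14 too, at 1173 and 1574, against 665 and 540 at E18 and 637 and 664 at P28. The part of either cell type in the course of F8 was not tested.

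The subunits of factor XIII, which cross-links fibrin, went in opposite directions. F13a1, the catalytic A subunit, was the only gene that fell over 3-fold, and it was at 18.6 and 26.6 CPM in the E18 samples, 1.12 and 1.20 in P14, 0.225 and 0.182 in P28 and 0.223 and 0.241 in the adult ones. The E18 samples lay above all others, and P28 and adult overlapped. The log2 fold changes were -6.59 ± 0.25 (SE, adjusted p = 2.4e-08) from E18 to adult, -4.28 ± 0.20 (SE, adjusted p = 1.5e-07) from E18 to P14 and -2.50 ± 0.27 (SE, adjusted p = 1.4e-04) from P14 to P28. F13b, the carrier B subunit, was at a mean of 70.9 ± 1.34 CPM (SD, n = 2) at E18 and 361 ± 14.5 in adult, a rise of 2.35 ± 0.09 (SE, adjusted p = 3.0e-08). All 7 megakaryocyte markers fell over 3-fold from E18 to adult, with a median log2 fold change of -6.70, beside -6.59 for F13a1. Their summed CPM was 203 and 264 in the E18 samples, 23.5 and 24.4 in P14, 9.05 and 9.65 in P28, and 6.22 and 7.24 in the adult ones. All 8 erythroid and all 8 granulocyte and myeloid markers fell over 3-fold as well, with medians of -7.02 and -9.76. The part of megakaryocytes and of other blood-forming cells in the fall of F13a1 was not tested.

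**Figure D5:**
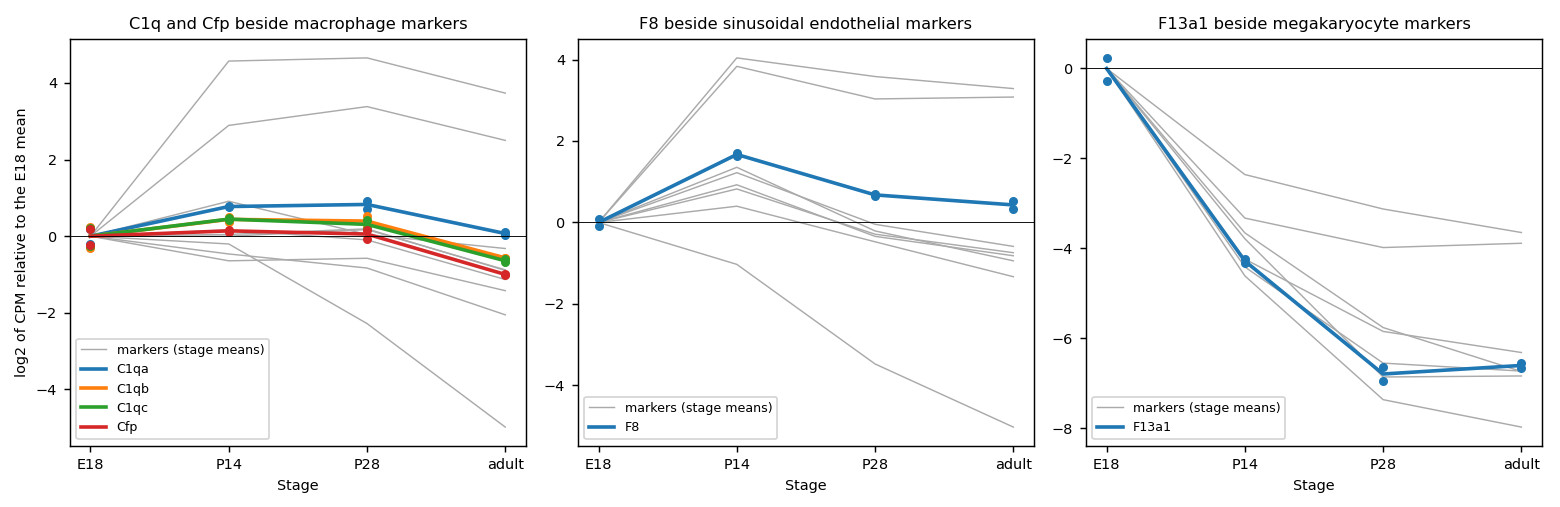
Log2 CPM relative to the E18 mean for C1qa, C1qb, C1qc and Cfp, for F8 and for F13a1 (colored points for samples and lines for stage means) beside the stage means of macrophage, sinusoidal endothelial and megakaryocyte markers (grey lines). The C1q genes, Cfp and the macrophage markers are lower in adult than at P28, F8 is highest at P14, and F13a1 lies among the falling megakaryocyte markers.

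The contact and kinin system starts clotting on charged surfaces and releases bradykinin, and 3 of its 4 genes rose over 3-fold. Klkb1, plasma prekallikrein, was at 43.4 and 35.9 CPM in the E18 samples, 145 and 153 in P14, 240.0 and 233 in P28 and 251 and 244 in the adult ones, a log2 fold change of 2.64 ± 0.11 (SE, adjusted p = 4.4e-08). F12, which activates prekallikrein, and Kng1, the kininogen that carries bradykinin, rose by 2.43 ± 0.10 (SE, adjusted p = 4.1e-08) and 1.61 ± 0.11 (SE, adjusted p = 1.2e-06). Kng1 has a paralog, Kng2, with which reads may be shared, and its call was lost under 8 of the 20 alternatives. F11, which lies beside Klkb1 and is its paralog, passed the false discovery rate but not 3-fold, with 1.50 ± 0.13 (SE, adjusted p = 4.6e-06). The RPKM ratio of F11 to Klkb1 was 2.21 and 2.18 in the E18 samples, 1.33 and 1.47 in P14, 1.13 and 1.25 in P28 and 1.02 and 0.967 in the adult ones. F11 was thus the more abundant per length at E18, and both were at similar RPKM in adult.

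Fibrinogen is a complex of alpha, beta and gamma chains whose genes Fga, Fgb and Fgg lie together on chromosome 3. Fgb was at 1431 and 1246 CPM in the E18 samples, 5530.1 and 5219.9 in P14, 8621 and 8247 in P28 and 7354 and 8497 in the adult ones. Fga was at 1597 and 1449.8 CPM in the E18 samples, 6074 and 5823 in P14, 7768 and 6914 in P28 and 5670.5 and 6855 in the adult ones, and Fgg was at 1031 and 966 CPM in the E18 samples, 4279 and 4136 in P14, 6569 and 6195 in P28 and 5113 and 5979 in the adult ones. All chains rose over 3-fold, with the lowest of the later samples far above both E18 samples, by 2.57 ± 0.14 (SE, adjusted p = 2.4e-07), 2.04 ± 0.15 (SE, adjusted p = 1.3e-06) and 2.47 ± 0.13 (SE, adjusted p = 2.0e-07). From P14 to P28, Fgb and Fgg rose further at a false discovery rate below 0.1 and under 3-fold, whereas the change of Fga of 0.30 ± 0.14 (SE, adjusted p = 0.11) did not pass. The ratio of Fga to Fgb RPKM was 0.523 and 0.545 in the E18 samples, 0.514 and 0.522 in P14, 0.422 and 0.392 in P28 and 0.361 and 0.378 in the adult ones. It was lower at P28 and in adult than at the earlier stages with no overlap. That of Fgg to Fgb was 0.745 and 0.801 in the E18 samples, 0.799 and 0.818 in P14, 0.787 and 0.776 in P28 and 0.718 and 0.727 in the adult ones, so that E18 overlapped with P14 and P28 and the adult values lay below all others.

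Fgb and Fgg held the first and the second place among the 45 genes by RPKM at every stage, and Vtn the third. In adult liver, Fgb was at 3683 and 4384 RPKM, Fgg at 2645 and 3186, Vtn at 1646 and 1646, Fga at 1329.6 and 1656 and Serpinc1 at 1387 and 1348. The samples of Fgb did not overlap with those of Fgg, while those of Fga overlapped with those of both its neighbours in this order, Vtn and Serpinc1. Relative to albumin, the RPKM of Fgb was 0.0485 and 0.0421 in the E18 samples, 0.0439 and 0.0414 in P14, 0.0864 and 0.0937 in P28 and 0.145 and 0.222 in the adult ones, so that E18 and P14 overlapped and both later stages lay above them. RPKM is scaled by the total of each library, so that the same genes at E18 had 1349 and 1146, 1005 and 918, 703 and 824, 705 and 625 and 346 and 409 RPKM.

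Among the serpins that inhibit clotting proteases and plasmin, 1 of 3 rose over 3-fold. Serpinc1 (antithrombin), which inhibits thrombin and factor Xa, was at 505 and 611 CPM in the E18 samples, 3889 and 3937 in P14, 3856 and 3700.4 in P28 and 3804 and 3589 in the adult ones, and rose by 2.73 ± 0.14 (SE, adjusted p = 1.2e-07), with no further step. Serpind1 (heparin cofactor II), an inhibitor of thrombin, was at 449.6 and 428 CPM in the E18 samples, 1517 and 1555 in P14, 1212 and 1227 in P28 and 1158 and 1213 in the adult ones. It rose over 3-fold from E18 to P14, with 1.81 ± 0.10 (SE, adjusted p = 4.6e-07), a call that was lost with library size alone at 0.94, and had 1.43 ± 0.10 (SE, adjusted p = 1.3e-06) from E18 to adult, under 3-fold. Serpinf2, the inhibitor of plasmin, was at 1078 and 1188 CPM in the E18 samples, 2341 and 2506 in P14, 1811 and 1878 in P28 and 1503 and 1595 in the adult ones. It was highest at P14 and had a small change of 0.45 ± 0.11 (SE, adjusted p = 0.0048) from E18 to adult, which turned to -0.40 with library size alone. Plg, the precursor of plasmin, rose by 2.27 ± 0.12 (SE, adjusted p = 1.6e-07). The RPKM ratio of Serpinf2 to Plg was 1.53 and 1.54 in the E18 samples, 0.712 and 0.745 in P14, 0.535 and 0.539 in P28 and 0.423 and 0.445 in the adult ones, so that the transcript of the inhibitor was the more abundant per length at E18 and that of plasminogen later. Cpb2, a carboxypeptidase that slows fibrinolysis, was at 106 and 125 CPM in the E18 samples, 468 and 456 in P14, 548 and 598 in P28 and 616 and 666 in the adult ones, a log2 fold change of 2.47 ± 0.12 (SE, adjusted p = 9.9e-08).

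The 15 genes that rose beyond those with the 20 largest fold changes were Fgg, F12, F13b, Plg, C3, F2, F10, Fga, Pros1, Vtn, Cfb, Masp1, Cfi, Kng1 and C2. Their fold changes from E18 to adult were between 3.01 and 5.55, with standard errors of the log2 fold change between 0.09 and 0.15 and edgeR adjusted p of 1.8e-06 or less. The calls of these genes other than Fgg were lost under at least 1 of the 20 alternatives, whereas those of Fgg, C6, C9, Mbl2, C4bp, F9, C8a, C4b, C8g, Serping1, F7, C8b, Mbl1, Hc, Masp2, Serpinc1, F5, Klkb1, Proc, Fgb and Cpb2 from E18 to adult held under all 20.

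A wider list of 67 complement, clotting, fibrinolysis and receptor genes that are not among the 45 was drawn from general knowledge, and 66 were in the files and 65 tested. From E18 to adult, 27 of them rose over 3-fold, 15 fell and 23 did not pass both thresholds, with a median log2 fold change of 0.66, beside 16.8% and 23.8% of all genes. With library size alone, 19 rose and 23 fell. The 6 further complement components, the proteases C1ra, C1rb, C1s and C1rl of the C1 group with C4a and the terminal component C7, all rose, and C1ra and C1rb are near-identical copies between which reads may have been split. Of 11 further regulators 6 rose and 1 fell. The 6 genes of the vitamin K cycle and of the secretion of factors V and VIII included 3 that rose (Vkorc1, Lman1 and Mcfd2). Of 7 further fibrinolysis genes 5 fell, among them both plasminogen activators (Plat and Plau) and the urokinase receptor Plaur, and 1 rose. Of 5 protease-activated and kinin receptors tested, 3 fell (F2rl1, F2rl3 and Bdkrb2).

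Hrg and Fgl1 were among the largest risers of these genes. Hrg, the histidine-rich glycoprotein that binds heparin and plasminogen, was at 6.54 and 5.75 CPM in the E18 samples, 816 and 772 in P14, 907 and 929 in P28 and 1203 and 1121 in the adult ones, a log2 fold change of 7.56 ± 0.14 (SE, adjusted p = 1.2e-09). Fgl1, a fibrinogen-like protein secreted by hepatocytes, was at 1.32 and 0.466 CPM in the E18 samples, 305 and 420.2 in P14, 512 and 487 in P28 and 127 and 125 in the adult ones, and its adult samples lay below both P14 and P28. Its changes were 7.12 ± 0.40 (SE, adjusted p = 2.6e-07) from E18 to adult and -1.99 ± 0.31 (SE, adjusted p = 0.0039) from P28 to adult, so that it fell over 3-fold in the last step.

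The largest fallers were A2m, Serpinb2 and Fcnb. A2m, the broad protease inhibitor alpha-2-macroglobulin, was at 381 and 454 CPM in the E18 samples, 13.2 and 12.5 in P14, 0.288 and 0.546 in P28 and 0.223 and 0.286 in the adult ones, a log2 fold change of -10.66 ± 0.25 (SE, adjusted p = 2.9e-09). Serpinb2, an inhibitor of plasminogen activators, was at 1.98 and 1.83 CPM at E18 and had 0 reads in both adult samples, against 499 reads over the E18 samples, which makes it at least 79.3-fold lower when the adult group is set at 3 reads over both samples. Fcnb, a ficolin of myeloid cells that recognises sugars for the lectin pathway, was at 19.5 and 20.2 CPM at E18 and had 3 reads over the adult samples. The ratio of E18 to adult was 823, with an exact 95% interval of 281 to 3990.0 that covers counting error only. The 8 granulocyte and myeloid markers, Mpo and Elane among them, fell over 3-fold in the same comparison, from a summed 1032 and 1217 CPM at E18 to 1.44 and 3.95 in adult. Their part in the falls of Fcnb and Serpinb2 was not tested.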

How the data were processed

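The authors sequenced poly(A)-selected RNA of whole mouse liver as 100 bp read pairs and deposited, for each of 22059 gene symbols in each of 8 samples, the number of reads on the gene as raw counts. The authors deposited RPKM made from these counts as well, and the quotient of both factors exactly into a gene length and a library total. The processing notes of the submitters name the build mm9, and the version of the aligner is not given in the sources used here. For RNA isolation, Trizol is in the labels and a column kit in the study's methods. The labels number the samples but give no batch, litter or date.

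Genes were filtered with filterByExpr of edgeR (version 4.0.16), which kept 17081 genes, scaled by TMM and fitted to all 8 samples with glmQLFit and 1 coefficient per stage. Stages were compared with glmQLFTest. A gene rose or fell when the Benjamini-Hochberg false discovery rate over all genes tested was below 0.1 and the change over 3-fold, thresholds that follow the study's methods, which used another tool. A standard error is the log2 fold change over the root of its F statistic. The main edgeR fit, DESeq2 and limma were first tested on simulated counts with known changes from E18 to adult. The other comparisons and the alternatives of filter, scaling, block and samples were not simulated. The simulated counts held no shift of scale like that of E18. RPKM ratios were taken within samples. Promoter windows came from RefSeq (GRCm38.p6), a build other than that of the counts, so no gene coordinates are given for the counts.

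The genes and lists were chosen with earlier results of these data known, and no list is independent evidence. All 45 genes are named by role. Values of every sample are given for genes past both thresholds in any comparison, for the 5 with the highest adult RPKM and for those that fell, except that the risers beyond the 20 largest are given by range. Of the wider list, the 3 largest risers and fallers are named with values, except 1 riser that is not reported here. Alternatives were no filter, a minimum of 10 counts in each sample, scaling by median ratio, by upper quartile or by library size, DESeq2 (version 1.42.0), fits of the compared stages alone, a block for the replicate number, thresholds of 0.05 or 2-fold, limma (version 3.58.1) on log2(RPKM + 0.1) and log2(RPKM + 1), and each sample left out in turn. Fits ran in R (version 4.3.3). Tables and figures were made in Python (version 3.11.15) with pandas (version 2.3.3), scipy (version 1.17.1) and matplotlib (version 3.10.9).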

Additional observations from a re-analysis of the deposited data

How the results depend on the processing

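Of 240 recomputed counts, 222 stayed within 1.5 times their value. From E18 to adult, 22 genes rose with library size alone and 21 with limma on log2(RPKM + 0.1) and on log2(RPKM + 1), in place of 35, and 2 fell (F13a1 and Cfp) in place of 1 in each of these. From E18 to P14, 14 rose in each of these, in place of 34. With both limma fits, F13a1 was no longer called from P14 to P28 or from P14 to adult, and 0 genes fell in either. With a 2-fold threshold, 1 gene (Cfp) fell from P28 to adult and 5 (C1qb, C1qc, Cfp, F8 and F13a1) from P14 to adult. Of the wider list, 17 and 12 genes rose from E18 to adult with the limma fits, in place of 27, and 23 fell with library size alone, in place of 15. The library-size scaling and RPKM move the median of all genes downward from E18, and the pseudocount shrinks changes of low genes such as F13a1.

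When the samples were left out 1 at a time, the counts from E18 to adult were 33 to 35 risen and 1 to 1 fallen, and for the wider list 27 to 28 and 14 to 15. From E18 to P14 they were 34 and 1 throughout, from P14 to P28 4 and 1, from P28 to adult 1 and 0, and from P14 to adult 4 and 1. With 1 sample left at a stage, that sample was taken to vary like the others. The fold change of C9 was 549 without E18 replicate 2 and 150.0 without E18 replicate 1, in place of 236.

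The sign of C1qa from E18 to adult turned to -0.067 with at least 10 counts in every sample, -0.78 with library size alone, -0.19 with upper-quartile scaling, -0.79 and -0.77 with limma and -0.12 without E18 replicate 1, and was 0.29 without E18 replicate 2. That of F8 turned to -0.42 with library size alone and to -0.40 and -0.21 with limma, and that of Serpinf2 to -0.40, -0.42 and -0.42. With library size alone, the median of all genes from E18 to adult moved from -0.11 to -0.95. The cause of the turned signs was not tested.

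With the replicate block, 35 genes rose and 1 fell from E18 to adult, as without it, and the other counts did not move either. Samples of different stages with the same number deviated from their stage means with correlations of -0.32 to 0.12 over 13123 genes. With 2 samples per stage, these values cannot show whether the number marks a batch or litter. Cfd and genes near 3 reads are limited by counting.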
